A study of Mus musculus with 10 samples.

Results

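The 10 genes described here encode transcription factors that define heart muscle cells: Gata4, Gata6, Nkx2-5, Tbx5, Tbx20, Hand2, Mef2a, Mef2c, Mef2d and Irx4. They were chosen by name, for their known role, when earlier results of these data were already known. All 10 were found among the 23337 genes of the count table, and all 10 passed the filter on low counts that left 11870 genes for testing. The study deleted Actn2, the gene of alpha-actinin-2, which is the main cross-linking protein of the sarcomere Z-line, in mouse heart muscle cells. The 5 knockout animals carried 2 floxed Actn2 alleles (Actn2 F/F) and the 5 control animals carried 1 floxed and 1 normal allele (Actn2 F/+, here called heterozygotes). Animals of both groups received AAV9-cTNT-Cre on postnatal day 1, an adeno-associated virus that expresses Cre from the cardiac troponin T promoter, so the controls had also been exposed to Cre and to virus and had lost up to 1 copy of Actn2. On postnatal day 14 cardiomyocytes were freed by collagenase perfusion and sorted by fluorescence, and their poly(A) RNA was sequenced. No group had 2 intact alleles without Cre, and only RNA was measured, so neither the amount nor the activity of these proteins is known.

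GATA4 and GATA6 are zinc finger proteins that bind GATA sites. NKX2-5 is a homeodomain protein, TBX5 and TBX20 belong to the T-box family, and HAND2 is a basic helix-loop-helix protein that binds E-boxes. The MEF2 proteins bind AT-rich sites in muscle genes and are held in check by class IIa histone deacetylases, while IRX4 is an Iroquois homeodomain protein of the ventricle. These factors bind next to one another at enhancers and promoters of contractile, channel and natriuretic peptide genes, and they recruit cofactors such as p300 and myocardin. In the embryo they set up the heart, and in the newborn they help to maintain the ventricular programme while fetal genes are switched off.

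Total counts ran from 8086656 to 25237696 per animal, and single members were counted between 174 and 6831 times in an animal. Values are normalised read counts in CPM (read counts relative to library totals that were adjusted by TMM factors) with the SD over 5 animals. Actn2 checked the labels: it stood at 3181 ± 358 CPM in the heterozygotes and 1217 ± 55.3 in the knockouts, without overlap (log2 fold change -1.39, SE 0.0910, edgeR adjusted p = 3.48e-07). Reads were therefore still counted on Actn2 in the knockouts. Heterozygote 1 had the largest total, against 10309615 in the next heterozygote. Heterozygote 2 and knockout 5 were at an extreme in other values given here. Heterozygote 2 deviated most from its group mean over all tested genes (0.396 on the log2 scale). Heterozygotes 4 and 3 were close to it (0.378 and 0.374), and the other animals ran from 0.255 to 0.357. Knockout 5 had the highest summed CPM of the atrial genes listed below. It had 177 CPM of Myl7, the atrial myosin light chain, against 0.197 to 44.4 in the other 9. In bulk RNA, more cells of a type and more RNA per cell cannot be told apart. Some results below are also given without heterozygote 2 or without knockout 5.

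None of the 10 factors passed the test between knockout and heterozygote. By edgeR's quasi-likelihood test 0 of 10 had an adjusted p below 0.05, where 18.9% of all tested genes did (10.2% higher and 8.64% lower in the knockout). At an unadjusted p below 0.05 there were 4 of 10 (Gata4, Gata6, Tbx20 and Irx4), against 32.4% of all tested genes. DESeq2 called 2 (Gata4 and Gata6, background 22.1%) and limma's voom with sample weights called 2 (Gata4 and Irx4, background 21.3%). In no member did all knockouts lie above all heterozygotes, while 8.41% of tested genes did so.

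The differences were small in either direction. The estimate was positive in 7 members and negative in Nkx2-5, Tbx5 and Mef2d, and the median log2 fold change was 0.25, beside 0.0023 over all tested genes. Scaling by library totals alone moved the median of all tested genes to 0.0839 and made all 10 estimates positive. The 3 negative ones also changed sign in some fits that kept the main scaling, so their sign is not settled. That scaling also changed the split of all calls from 1216 higher and 1025 lower to 1684 higher and 760 lower. The largest estimate, 0.38 for Gata6, was exceeded in size by 29.7% of tested genes. The 95% intervals of the 10 members together ran from -0.39 to 0.89 in log2, or from 0.763-fold to 1.85-fold. In this fit a 2-fold change in either direction lay outside the interval of every member, but for Hand2 the estimate and its SE were larger in some other fits (0.63, SE 0.388, with an endothelial covariate). A failed test does not show that the levels were equal.

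**Figure D1:**
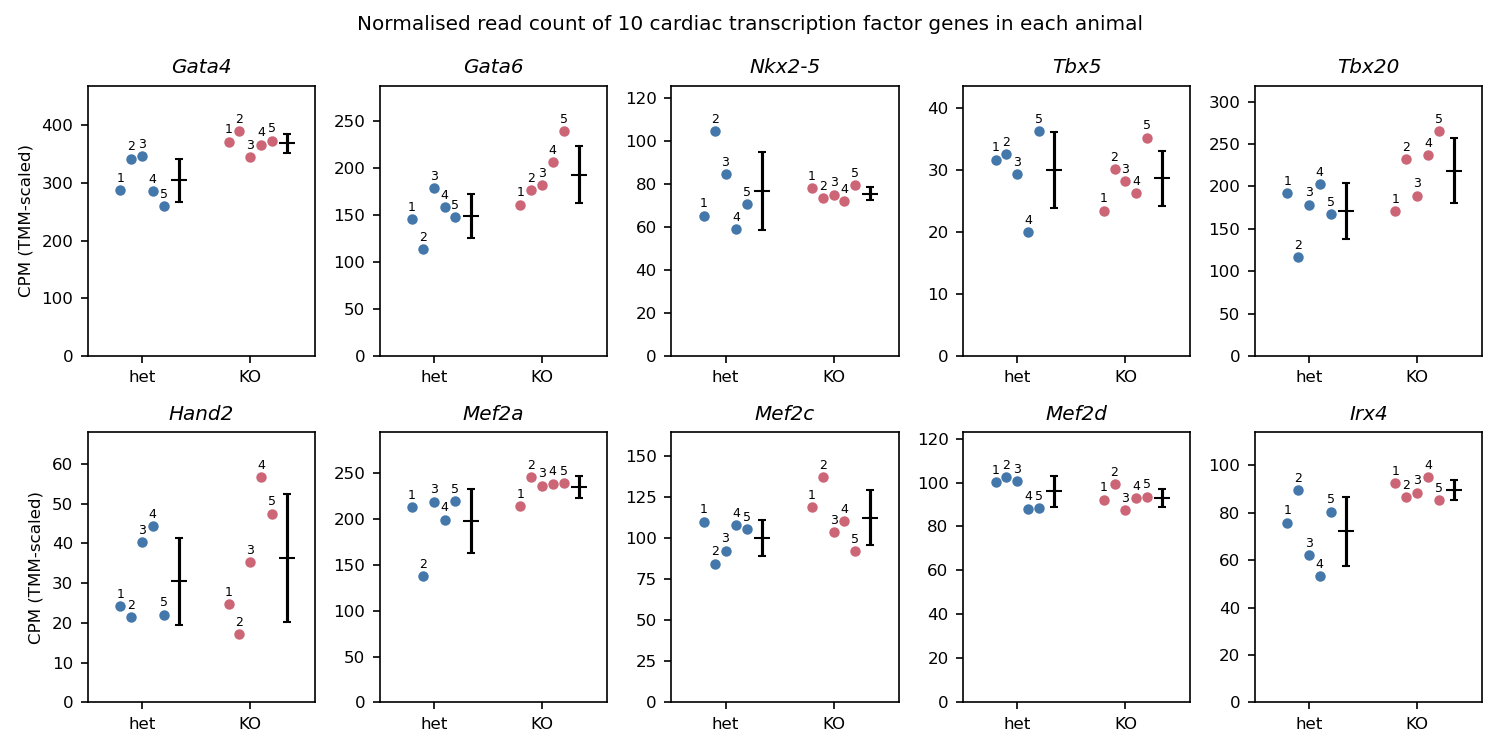
Normalised read count (CPM, linear axis from 0) of each of the 10 factors in every animal, with heterozygotes (het) in blue, knockouts (KO) in red, replicate numbers above the points, and bars for the mean ± SD of 5 animals. The groups overlap in every panel, and in Nkx2-5, Mef2a and Irx4 the heterozygotes spread more widely than the knockouts.

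Gata4 (chromosome 14, 63198915 to 63245260, minus strand, build mm10) was the most abundant of the factors. The heterozygotes 1 to 5 had 287, 342, 346, 286 and 260 CPM, and the knockouts 1 to 5 had 371, 390, 344, 366 and 373. Only heterozygote 3 and knockout 3 broke the separation of the groups, and by 2 CPM. The means were 304 ± 38.0 and 369 ± 16.4, a 1.21-fold difference (log2 0.28, SE 0.0955, 95% interval 0.07 to 0.48) that missed the threshold in edgeR (adjusted p = 0.0559). Gata4 was called in 6 of 21 alternative settings, with adjusted p-values from 0.00548 to 0.178. Among these were the fits without heterozygote 2 (adjusted p = 0.0239) and without heterozygote 3 (0.0351), both of which had the highest heterozygote levels.

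Gata6 (chromosome 18, 11052510 to 11085635, plus strand), which overlaps in function with Gata4 in the heart, gave the largest estimate. The heterozygotes had 146, 114, 178, 158 and 148 CPM, and the knockouts 161, 176, 182, 206 and 239. The lowest of all 10 animals was heterozygote 2 and the highest was knockout 5, and 3 knockouts lay above every heterozygote. The means of 149 ± 23.5 and 193 ± 30.7 differed 1.30-fold (log2 0.38, SE 0.131, 95% interval 0.10 to 0.66, edgeR adjusted p = 0.0605). It was called in 6 of 21 settings, for example without knockout 1 (adjusted p = 0.0396). Without knockout 5, the animal with the highest summed CPM of the atrial genes, the estimate fell to 0.29 with an adjusted p of 0.157. Without heterozygote 2, the lowest animal, it fell to 0.30 (adjusted p = 0.0939). Per kilobase, Gata4 made up 65.8% ± 4.69 of the summed Gata4 and Gata6 level in the heterozygotes and 64.4% ± 3.69 in the knockouts, with overlapping ranges. The difference of -1.35 percentage points turned to 0.692 without heterozygote 2 and was -2.36 without knockout 1.

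Nkx2-5 (chromosome 17, 26838665 to 26841565, minus strand), the homeodomain factor that partners GATA4 and TBX5, showed no difference beyond its error. The heterozygotes had 65.4, 105, 84.7, 59.1 and 70.5 CPM, and the knockouts 78.1, 73.6, 75.0, 71.9 and 79.4. The knockouts lay close together inside the range of the heterozygotes, whose coefficient of variation was 23.7% against 4.10%. The means were 76.9 ± 18.2 and 75.6 ± 3.10 (log2 -0.02, SE 0.134, 95% interval -0.31 to 0.27, edgeR adjusted p = 0.935). Leaving out heterozygote 2, the highest animal, turned the estimate to 0.12 (adjusted p = 0.458).

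The T-box pair differed in level and in estimate. Tbx5 (chromosome 5, 119834663 to 119885218, plus strand), known for its role in the atria, septum and conduction system, stood at 30.0 ± 6.12 CPM in the heterozygotes and 28.6 ± 4.44 in the knockouts, with ranges of 19.98 to 36.3 and 23.4 to 35.3 (log2 -0.06, 95% interval -0.39 to 0.26, edgeR adjusted p = 0.824). Tbx20 (chromosome 9, 24720812 to 24774303, minus strand), needed for the adult ventricle, had 192, 117, 178, 202 and 167 CPM in the heterozygotes and 171, 232, 189, 237 and 265 in the knockouts. For Tbx20, 3 knockouts lay above every heterozygote and heterozygote 2 lay far below the rest. Its means of 171 ± 33.2 and 219 ± 38.3 differed 1.28-fold (log2 0.35, SE 0.151, 95% interval 0.03 to 0.68, edgeR adjusted p = 0.123). No setting called Tbx20, and its estimate was 0.24 without heterozygote 2 (adjusted p = 0.2). Whether Tbx20 and Tbx5 responded differently from each other was not tested.

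Hand2 (chromosome 8, 57320983 to 57324517, plus strand), known from the right ventricle and outflow tract, varied most among animals. The heterozygotes had 24.3, 21.4, 40.4, 44.3 and 22.0 CPM, and the knockouts 24.8, 17.1, 35.2, 56.5 and 47.4. In either group some animals were near 20 and others above 40, and the coefficients of variation were 36.0% and 44.4%. The means were 30.5 ± 10.97 and 36.2 ± 16.1 (log2 0.26, SE 0.296, 95% interval -0.38 to 0.89, edgeR adjusted p = 0.602). The estimate ranged from 0.04 without knockout 4 to 0.44 without knockout 2. The antisense transcript Hand2os1 shares 461 of the counted exon bases (20.6%), and the counting used no strand option, so reads of the 2 genes cannot be told apart there. The promoter of Hand2 is shown because it was the promoter of a member with the most kinds of motif searched here, which are given with the target genes below. It spans chr8:57320733-57321032 on the plus strand (RefSeq, build GRCm38.p6, which is mm10), from 250 bases before to 50 after the transcription start. Printed 5′ to 3′, the capitals mark an E-box match at -246 to -241 and GATA matches at -215 to -210 and -172 to -167, counted from the start of transcription.
Hand2 promoter: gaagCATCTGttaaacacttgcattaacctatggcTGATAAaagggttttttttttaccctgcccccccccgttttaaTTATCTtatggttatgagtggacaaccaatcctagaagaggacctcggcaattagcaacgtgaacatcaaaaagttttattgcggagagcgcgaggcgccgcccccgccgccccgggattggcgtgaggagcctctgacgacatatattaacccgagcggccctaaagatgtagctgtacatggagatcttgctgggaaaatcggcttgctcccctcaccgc
The E-box letters were found in 17.2% of 32851 mouse promoters of this length and the GATA letters in 29.8%, so such matches are common and say nothing on their own about binding.

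Mef2a, Mef2c and Mef2d encode the MEF2 proteins of heart muscle. Mef2a (chromosome 7, 67233827 to 67372858, minus strand), the main form in the postnatal heart, had 213, 138, 219, 199 and 220 CPM in the heterozygotes and 214, 245, 236, 238 and 239 in the knockouts. Heterozygote 2 lay far below and knockout 1 somewhat below the rest of their groups. The means of 198 ± 34.4 and 234 ± 11.97 gave a log2 fold change of 0.25 (SE 0.119, 95% interval -0.01 to 0.50, edgeR adjusted p = 0.168), and 0.14 without heterozygote 2. Lysmd4, on the opposite strand, shares 302 of its counted exon bases (10.5%). Mef2c (chromosome 13, 83504034 to 83667079, plus strand), the form required in the early embryonic heart, stood at 100 ± 11.04 and 112 ± 16.9 CPM, with ranges of 84.5 to 110 and 92.0 to 137 (log2 0.17, 95% interval -0.08 to 0.41, edgeR adjusted p = 0.352, and 0.085 without knockout 2). Mef2d (chromosome 3, 88142395 to 88169167, plus strand), the form linked to stress-dependent remodelling, stood at 95.9 ± 7.11 and 93.0 ± 4.18 CPM, with ranges of 88.1 to 102 and 87.4 to 99.1 (log2 -0.04, 95% interval -0.22 to 0.13, edgeR adjusted p = 0.763). Mef2d had the smallest standard error of the 10 factors, 0.0825.

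As shares of their summed level per kilobase, Mef2a made up 55.5% ± 5.02 in the heterozygotes and 59.8% ± 1.96 in the knockouts, Mef2c 12.4% ± 1.02 and 12.5% ± 1.59, and Mef2d 32.1% ± 4.96 and 27.7% ± 0.832. The groups overlapped for each share. The difference was 4.24 percentage points for Mef2a, 0.105 for Mef2c and -4.34 for Mef2d. For Mef2a and Mef2d its size exceeded the SD of the knockouts but not that of the heterozygotes. These SDs describe the spread of single animals and are not the error of the difference. A shift in the mix of the 3 genes was not tested. Heterozygote 2 had the lowest Mef2a share, 46.8%, and without single animals the difference in the Mef2a share ranged from 2.06 to 5.23 percentage points. For the Mef2d share it ranged from -5.37 to -2.20, the latter without heterozygote 2. The promoter of Mef2a is shown because it was the promoter of a member with a match to the MEF2 consensus, the motif that its own product binds. It spans chr7:67372809-67373108 on the minus strand (RefSeq, GRCm38.p6), and the capitals mark the match, which runs from -2 to 8 across the start of transcription.
Mef2a promoter: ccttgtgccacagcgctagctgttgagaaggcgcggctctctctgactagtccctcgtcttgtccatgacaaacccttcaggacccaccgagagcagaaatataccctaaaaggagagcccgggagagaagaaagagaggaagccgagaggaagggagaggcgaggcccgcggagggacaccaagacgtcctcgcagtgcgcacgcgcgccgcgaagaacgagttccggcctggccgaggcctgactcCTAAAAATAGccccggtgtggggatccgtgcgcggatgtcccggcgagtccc
The MEF2 consensus was found in 3.19% of the 32851 promoters.

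Irx4 (chromosome 13, 73260497 to 73269620, plus strand), a factor of ventricular and not atrial muscle, had 75.9, 89.6, 62.0, 53.2 and 80.5 CPM in the heterozygotes and 92.7, 86.7, 88.5, 94.9 and 85.4 in the knockouts. Only heterozygote 2 reached the range of the knockouts, and the knockouts varied less (4.51% against 20.2%). The means of 72.2 ± 14.6 and 89.6 ± 4.04 differed 1.24-fold (log2 0.31, SE 0.124, 95% interval 0.04 to 0.58, edgeR adjusted p = 0.0991). Irx4 was called in 3 of 21 settings, among them the fit without heterozygote 2 (log2 0.40, adjusted p = 0.0279). Irx4 and Mef2c share chromosome 13 with Actn2, at 60.9 and 71.2 Mb from it.

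The animals at the extremes recurred across members. Heterozygote 2 was the lowest heterozygote in 5 members (Gata6, Tbx20, Hand2, Mef2a and Mef2c) and the highest in 3 (Nkx2-5, Mef2d and Irx4). Heterozygote 4 was the lowest in 4 (Nkx2-5, Tbx5, Mef2d and Irx4) and the highest in 2 (Tbx20 and Hand2). Knockout 1 was the lowest knockout in 4 members, and knockouts 2 and 5 were the highest in 4 each. The coefficient of variation was larger in the heterozygotes in 7 of 10 members, and in 65.27% of all tested genes. The greater spread of the heterozygotes was thus shared by much of the transcriptome.

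**Figure D2:**
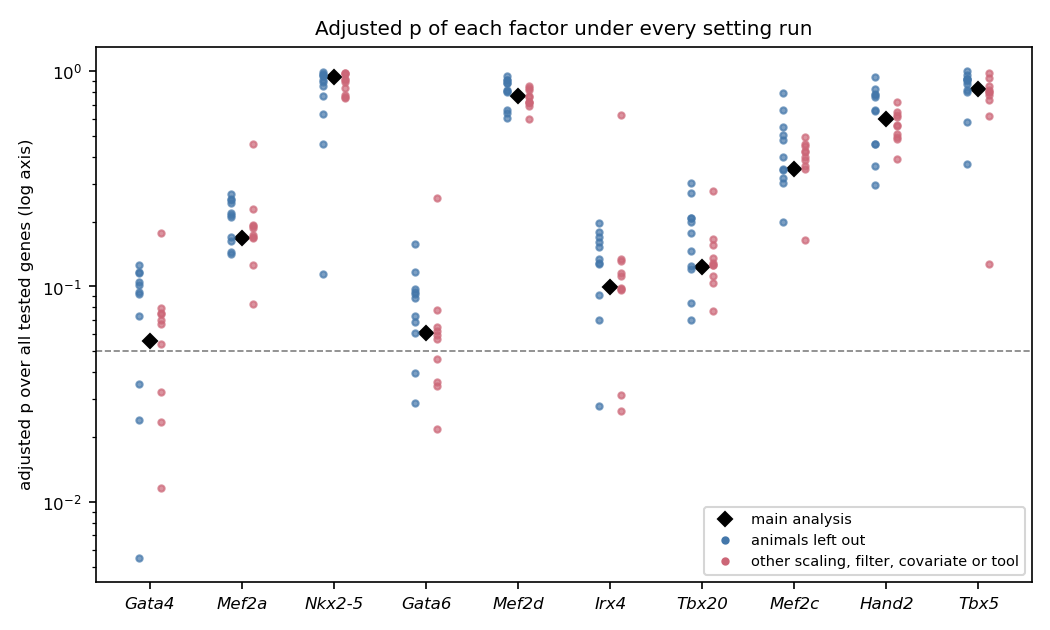
Adjusted p over all tested genes (log axis) for each factor in the main analysis (black diamonds), in fits that left out 1 or 2 animals (blue) and with another scaling, filter, covariate or tool (red); the dashed line is at 0.05. Points fall below the line for Gata4 (6 of 21), Gata6 (6 of 21) and Irx4 (3 of 21) alone.

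Levels of different genes were compared as CPM per kilobase of counted exon. In the heterozygotes the order was Gata4 (89.7 ± 11.2), Mef2a (68.7 ± 11.97), Nkx2-5 (50.4 ± 11.96), Gata6 (46.6 ± 7.37), Mef2d (39.0 ± 2.89), Irx4 (27.8 ± 5.61), Tbx20 (24.9 ± 4.82), Mef2c (15.2 ± 1.68), Hand2 (13.6 ± 4.91) and Tbx5 (7.60 ± 1.55). Between neighbours the ranges of the heterozygotes overlapped for Mef2a and Nkx2-5, Nkx2-5 and Gata6, Gata6 and Mef2d, Irx4 and Tbx20, and Mef2c and Hand2. These ranges alone did not resolve the order within such pairs. Within single heterozygotes, Mef2a exceeded Nkx2-5 and Gata6 exceeded Mef2d in 4 of 5. Nkx2-5 exceeded Gata6 in 2, and Irx4 exceeded Tbx20 and Mef2c exceeded Hand2 in 3. The ranges of the heterozygotes did not overlap for Gata4 and Mef2a, Mef2d and Irx4, Tbx20 and Mef2c, or Hand2 and Tbx5. Gata4 lay above 93.34% of tested genes by this measure and Tbx5 above 50.55%, so each factor lay above the middle of the tested transcriptome.

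The same order held for the means of the knockouts, except that Gata6 (60.4 ± 9.61) came before Nkx2-5 (49.6 ± 2.03). The ranges of these 2 genes overlapped in either group. In the knockouts the ranges were separate for Mef2a and Nkx2-5 and for Gata6 and Mef2d. They overlapped there for Mef2d and Irx4 and for Hand2 and Tbx5, although Mef2d and Hand2 were the higher of their pair in all 5 knockouts. Gata4 reached 109 ± 4.85 and Mef2a 81.6 ± 4.17 CPM per kilobase in the knockouts, while Tbx5, at 7.27 ± 1.13, was again the lowest.

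**Figure D3:**
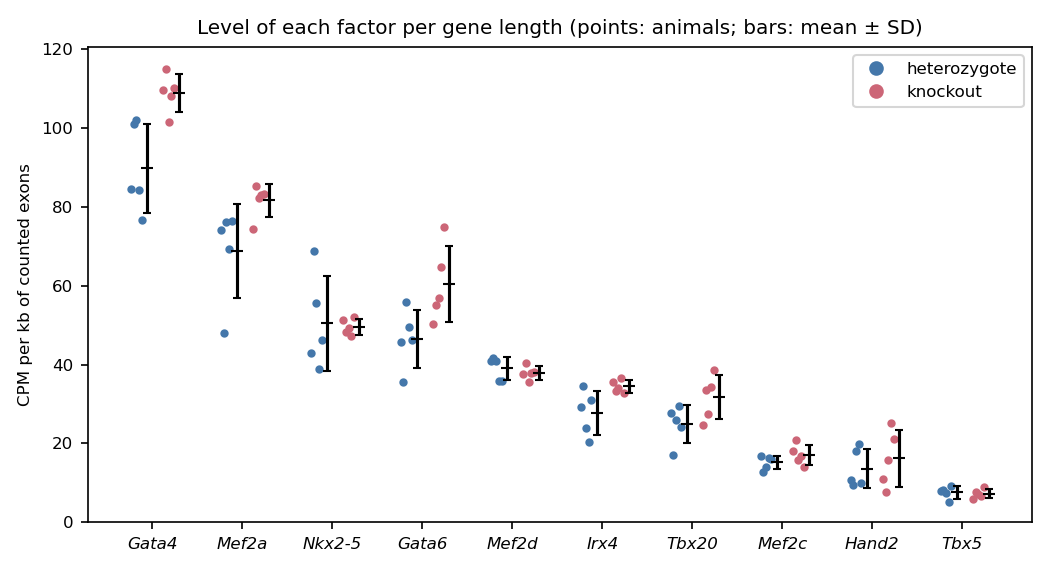
Level of each factor as CPM per kilobase of counted exon (linear axis from 0), with 1 point per animal (heterozygotes blue, knockouts red) and bars for the mean ± SD of 5 animals, ordered by the mean of the heterozygotes. Gata4 is highest and Tbx5 lowest in both groups.

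Close relatives of the factors were mostly too low to test. Of 20 paralogs from the GATA, NKX2, T-box, HAND, MEF2 and Iroquois families, 9 passed the filter, and Tbx4, Irx6, Nkx2-3 and Nkx2-6 had no read in any animal. By edgeR, 2 of the 9 rose and 1 fell, or 33.3% beside 18.9% of all tested genes. DESeq2 called 2 higher and 1 lower, and voom 3 and 0, where they called 22.1% and 21.3% of all tested genes. The median log2 fold change of the 9 was 0.23, beside 0.0023 for all tested genes. Tbx15, a T-box gene known from skeletal muscle and limb, rose from 0.629 ± 0.484 to 6.39 ± 2.59 CPM (log2 3.38, SE 0.491, adjusted p = 0.000289). Irx5, which shapes the gradient of repolarisation across the ventricle wall, rose from 25.0 ± 8.26 to 43.4 ± 5.75 CPM (log2 0.80, SE 0.196, adjusted p = 0.0113). Tbx2, a repressor in non-chamber muscle, fell from 7.12 ± 1.23 to 4.55 ± 1.01 CPM (log2 -0.65, adjusted p = 0.0406), a call that was lost in 12 of 21 settings, among them the fits without heterozygotes 2, 3 or 4 or knockouts 1, 2, 3 or 5.

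Of 24 partner factors and cofactors, 23 were tested, and 3 rose and 0 fell by edgeR, with a median of 0.08. The share called was 13%, below the 18.9% of all tested genes, and the share higher was 13% beside 10.2%. DESeq2 called 3 higher and 1 lower, and voom 3 and 0. The early heart field factor Isl1 had no read in any animal. Ep300, which encodes the acetyltransferase p300 that GATA4 and MEF2 proteins recruit, rose from 24.8 ± 2.09 to 38.9 ± 3.31 CPM (log2 0.65, SE 0.0997, adjusted p = 0.000476) and was called in every setting. Myocd, the gene of the SRF coactivator myocardin, rose from 142 ± 22.1 to 242 ± 75.2 CPM (log2 0.77, SE 0.174, adjusted p = 0.00644). Camta1, of the calmodulin-binding activator family that partners NKX2-5, rose from 183 ± 25.1 to 264 ± 23.9 CPM (log2 0.53, SE 0.109, adjusted p = 0.00368). Srf itself had 88.0 ± 13.9 and 72.7 ± 7.53 CPM (adjusted p = 0.117). Of the 4 class IIa histone deacetylase genes 0 passed the adjusted threshold in edgeR, and 1, Hdac5, had an unadjusted p below 0.05 (131 ± 25.5 and 160 ± 16.6 CPM, log2 0.29, adjusted p = 0.134). DESeq2 and voom also called 0 of these 4.

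Several genes that these factors are known to activate changed strongly. Of 30 textbook targets in heart muscle, 7 rose and 4 fell by edgeR, or 36.7% beside 18.9% of all tested genes, and their median log2 fold change was -0.0012. DESeq2 called 7 higher and 4 lower, and voom 7 and 5, where they called 22.1% and 21.3% of all tested genes. Several of these genes had been described from these samples before the list was made, so the count is not independent evidence of a direction. Nppa, which encodes the atrial natriuretic peptide, had 88.3, 224, 97.4, 50.5 and 76.7 CPM in the heterozygotes and 2262, 1531, 2153, 919 and 1680 in the knockouts. Every knockout lay above every heterozygote (107 ± 67.7 and 1709 ± 539, log2 3.99, SE 0.369, adjusted p = 7.11e-06). An antisense gene, Gm13054, shares 64.2% of the counted bases of Nppa, and without strand its reads are not separate. Nppa is also an atrial gene, and Myl7 of the atria stood at 44.4, 2.90, 2.15, 6.47 and 177 CPM in knockouts 1 to 5. Ankrd1, a stress-responsive protein of the sarcomere and nucleus, rose from 534 ± 155 to 4187 ± 1296 CPM (log2 2.97, adjusted p = 1.35e-06).

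Myh7, the slow myosin heavy chain of the fetal mouse ventricle, rose from 445 ± 316 to 6394 ± 2908 CPM (log2 3.85, adjusted p = 0.00048). Antisense genes share up to 8.64% of the counted bases of Myh7. Nppb, the gene of the B-type natriuretic peptide, rose from 148 ± 63.4 to 315 ± 85.2 CPM (log2 1.10, adjusted p = 0.00717). In contrast Kcnd2, a channel subunit of the transient outward current, fell from 29.3 ± 6.90 to 4.86 ± 1.25 CPM (log2 -2.60, adjusted p = 2e-06). Ckm, the muscle creatine kinase, fell from 4274 ± 826 to 2145 ± 115 CPM (adjusted p = 4.12e-05), and the antisense gene A930016O22Rik shares 31.9% of its counted bases. The troponin gene Tnni3 fell too (log2 -0.53, adjusted p = 0.00165). Myh6, the adult myosin heavy chain and a target of GATA4 and TBX5, had 42621 ± 8893 and 41568 ± 7002 CPM (adjusted p = 0.893). Nppa, Ankrd1, Myh7, Nppb, Kcnd2, Ckm and Tnni3 were called in all 21 alternative settings. Smaller changes in Tcap (log2 0.57), Atp2a2 (-0.40), Cacna1c (0.42) and Myom1 (0.37) lost their call in 4, 7, 1 and 3 settings. The difference between the responses of targets and factors was not itself tested.

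**Figure D4:**
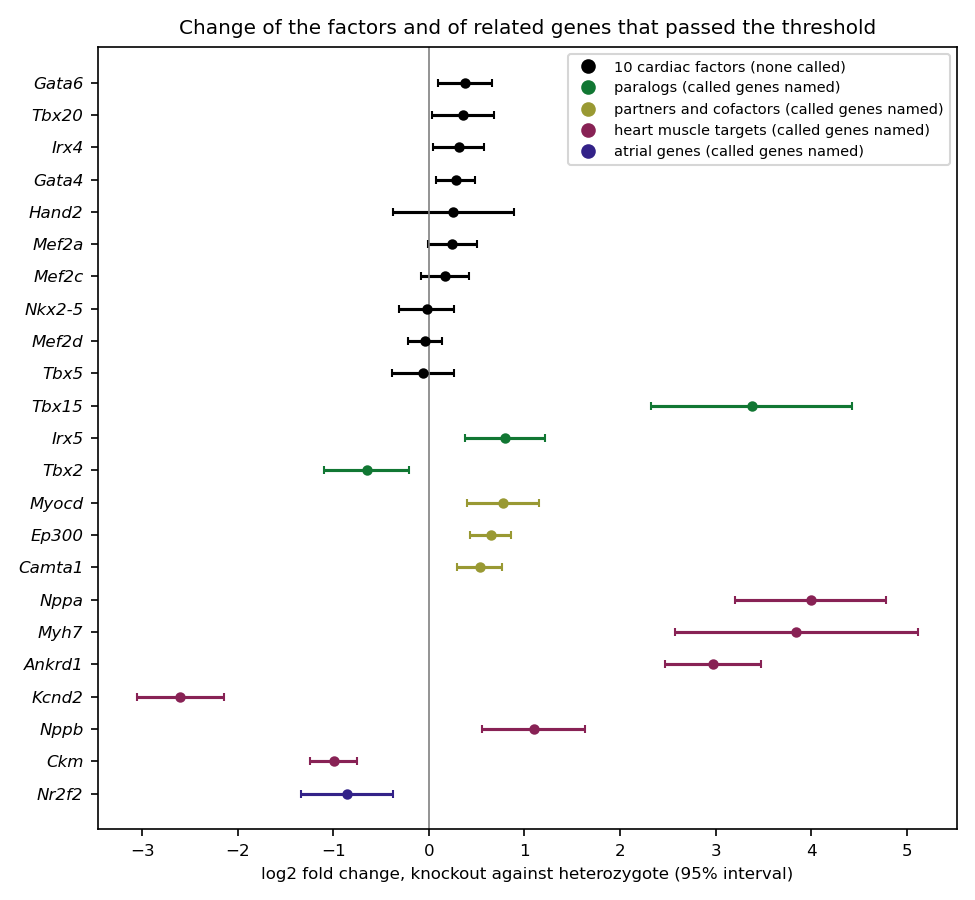
Log2 fold change of knockout against heterozygote with its 95% interval for the 10 factors (black) and for the called genes named from the lists of paralogs, partners, targets and atrial genes (colours). The factors lie between -0.06 and 0.38, while named targets range from -2.60 for Kcnd2 to 3.99 for Nppa.

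Promoters were searched on both strands for the motifs of the factors, from 250 bases before to 50 after the start. The GATA motif was read as AGATAA, in which the opening letter could also be T and the closing letter also G. The motif of NKX2-5 was TNAAGTG, with N for any base. The T-box motif was AGGTGTNA, the HAND E-box was CATCTG, and MEF2 sites were found by their consensus. No match of one motif overlapped a match of another in the 4 promoters printed here. In all 32851 RefSeq promoters of this length the shares with a match were 29.8% for GATA, 11.5% for NKX2-5, 3.03% for the T-box, 17.2% for the E-box and 3.19% for MEF2. Of the 10 factors 7 had an entry, and among these GATA letters were found in 1 (Hand2), the E-box in 2 (Hand2 and Mef2c), the MEF2 consensus in 1 (Mef2a) and the NKX2-5 and T-box letters in 0. Of 27 targets with an entry, 13 had GATA letters, 2 the NKX2-5 letters (Nppa and Myh7), 2 the T-box letters (Nppa and Tnni3), 1 the MEF2 consensus (Casq2) and 4 the E-box. A factor or target was counted if any of its promoters matched, and some had 2 (such as Myh7) or 3 (such as Mef2c and Cacna1c). The shares over all promoters count each promoter singly, so the gene counts are not directly comparable with them and can run higher. The promoters of the strongly raised genes Nppa and Ankrd1 are printed 5′ to 3′ with the matches in capitals. In Nppa (chr4:148000472-148000771, plus strand, RefSeq GRCm38.p6) these are T-box letters at -250 to -243, NKX2-5 letters at -241 to -235 and GATA letters at -122 to -117. In Ankrd1 (chr19:36119795-36120094, minus strand) they are GATA letters at -47 to -42.
Nppa promoter: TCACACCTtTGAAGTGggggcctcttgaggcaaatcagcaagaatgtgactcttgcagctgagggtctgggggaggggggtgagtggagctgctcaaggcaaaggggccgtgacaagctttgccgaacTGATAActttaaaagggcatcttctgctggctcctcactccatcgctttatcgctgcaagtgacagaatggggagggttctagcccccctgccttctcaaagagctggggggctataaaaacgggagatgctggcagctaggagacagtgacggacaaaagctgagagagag
Ankrd1 promoter: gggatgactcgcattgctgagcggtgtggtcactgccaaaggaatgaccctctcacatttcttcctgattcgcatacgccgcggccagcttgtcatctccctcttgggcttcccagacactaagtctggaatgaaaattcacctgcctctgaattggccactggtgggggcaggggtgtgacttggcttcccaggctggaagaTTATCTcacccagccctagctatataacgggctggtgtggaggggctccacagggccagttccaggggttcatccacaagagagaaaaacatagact
Nppa was the target in which 3 kinds of motif were found together. A match is a description of letters, and no binding was measured.

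IRX4 belongs to ventricular and not atrial muscle, and TBX5 has a known role in the atria. Genes of atrial muscle were therefore examined beside them. Of 11 atrial genes 9 were tested, and by edgeR 0 rose and 1 fell, or 11.1% beside 18.9% of all tested genes. DESeq2 and voom each called 0 higher and 2 lower. In edgeR 5 had an unadjusted p below 0.05 in either direction, where 32.4% of all tested genes did. The gene that fell was Nr2f2, which encodes the atrial identity factor COUP-TFII. It went from 4.26 ± 0.970 to 2.35 ± 0.368 CPM (log2 -0.85, edgeR adjusted p = 0.0158). Nr2f2 is also expressed in vessels, and B130024G19Rik on the opposite strand shares 13.4% of its counted bases. Summed atrial CPM ran from 170 to 309 in the heterozygotes and from 196 to 636 in the knockouts. Knockout 5 had 72.5 CPM of Sln and 13.01 of Bmp10, against at most 9.58 and 0.256 in the other 9 animals. Myl7, Myl4, Dkk3 and, narrowly, Kcnj5 were also highest there. Other genes of the list did not peak in knockout 5. Stard10 was 22.9 CPM there and 38.7 in heterozygote 2, and Gja5 was 21.6 and 31.4. Kcnj3 (6.62) and Nr2f2 (2.32) in knockout 5 lay below every heterozygote. Knockout 5 was also the highest animal for Gata6 and Tbx20. The part of atrial cells in those values was not tested. Without knockout 5 the Tbx20 estimate was 0.27 (adjusted p = 0.271). It was lower still, 0.24 (0.2), without heterozygote 2, the animal with the least Tbx20.

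The sorted cells carried markers of heart muscle, with 98680 to 122540 summed CPM over 8 genes in the heterozygotes and 93810 to 118710 in the knockouts. Endothelial markers were lower in estimate in 10 of 10 genes, 1 of which was called (Egfl7, log2 -0.65, edgeR adjusted p = 0.00612; DESeq2 called 5), and their sums ran from 534 to 872 CPM in the heterozygotes and 368 to 623 in the knockouts. With the mean log2 CPM of the endothelial markers as a covariate the number of called genes dropped to 1033, and no member was called. Among members the covariate moved Tbx5 to -0.40 (adjusted p = 0.127), Hand2 to 0.63 (0.39) and Irx4 to 0.15 (0.629). Calls were lost for Irx5 (log2 0.48, adjusted p = 0.221), Myocd (0.66, 0.118), Camta1 (0.50, 0.0595), Nr2f2 (-0.72, 0.167) and Tbx2 (-0.28, 0.556), and also for Atp2a2, Cacna1c, Myom1 and Tcap. Standard errors grew in this fit, for Camta1 from 0.109 to 0.152 and for Myocd from 0.174 to 0.242, so a lost call does not show that the endothelial level accounts for a change. Summed macrophage markers were lower in every knockout than in any heterozygote (8.71 to 11.2 against 14.0 to 38.2 CPM, 1 of 4 tested called by edgeR, 3 by DESeq2 and 3 at an unadjusted p below 0.05). Of all 11870 tested genes, 750 were lower in every knockout than in any heterozygote. Over all tested genes edgeR called 18.9%, DESeq2 22.1% and voom 21.3%, and 32.4% had an unadjusted p below 0.05 in edgeR. Fibroblast markers had 0 of 8 called by edgeR, DESeq2 and voom, and 1 at an unadjusted p below 0.05, with sums of 331 to 542 and 320 to 651 CPM. Epicardial sums were 4.05 to 20.5 and 4.06 to 7.64 CPM, and of the red cell markers Hba-a1, Hba-a2 and Hbb-b1 were at 0 in all animals. GATA4, GATA6, TBX20 and the MEF2 proteins are also made by some of these other cells, and the part of such cells in the members' values was not tested beyond the covariate.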

How the data were processed

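Poly(A) RNA of sorted cardiomyocytes from 10 mice was measured. The authors deposited whole-number read counts per gene, which are not normalised, made with featureCounts 1.5.1 with 4 threads and no other option on the UCSC mm10 annotation of a 2012 archive, per the file headers. The submitters' processing notes name CASAVA 1.8, STAR 2.5.3a and Subread 1.5.2. The alignment files in the header carry another aligner's default name, so the aligner is uncertain. The defaults ignore strand and drop reads that overlap several genes. A further 4 columns of counts match no sample here and were not used.

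Groups follow the genotype labels, and the labels call the 5 animals of a group biological replicates. Counts per animal totalled 8086656 to 25237696. Chi-square per degree of freedom was 10.8 to 37.5 over 20 pairs within a group, so no library was a copy of another in its group. Libraries of different groups were not compared in this way. Genes were filtered with filterByExpr (minimum count 10, total 15), scaled by TMM and tested with edgeR 4.0.16 (R 4.3.3, quasi-likelihood F test, no covariates, all 10 animals), with Benjamini-Hochberg adjustment over 11870 genes and a threshold of 0.05. CPM values use a prior count of 1 on the log scale, and 95% intervals come from the same fit. The alternatives were RLE, upper-quartile and library-total scaling, no filter, a mean of at least 5 CPM, the replicate number as a block, a Y-linked and an endothelial covariate, DESeq2 1.42.0, limma 3.58.1 voom, each animal left out in turn, and, chosen after seeing the data, heterozygotes 2 and 3 left out together. The value for which heterozygote 3 was left out there is not reported here.

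Members and lists were chosen with earlier results of these data known. The text names Actn2, every member, and up to 6 called genes of at least 1 CPM per list by size of change; no member was called, so the rule on genes of similar profile named none. Other named genes were chosen after their values were seen. Counts of Xist and Y-linked genes put 2 heterozygotes and 1 knockout in the female class.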

Additional observations from a re-analysis of the deposited data

Results flagged for a closer look

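Heterozygote 1 was sequenced far deeper than its group, with 25237696 total counts against 10309615 in the next heterozygote, a gap of 0.87 of the group's range. Mef2a stood at 7.11 log2 CPM in heterozygote 2, below the next heterozygote at 7.64 (gap 0.79 of the range). Mef2a also stood at 7.74 log2 CPM in knockout 1, below the next knockout at 7.88 (gap 0.733), although the distance is small on the log2 scale. The critical gap for 5 animals is 0.71. In all, 24 groups were checked and 3 passed it, where chance passes about 1 in 20, or 1.2 here. None of the other 9 members was marked in either group.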

How the results depend on the processing

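The number of members called was 0 in the main analysis, 3 with library totals, 2 with DESeq2, 2 with voom, 1 with the replicate block, 1 with the Y-linked covariate, 1 without heterozygotes 2 and 3 together, and 0 to 2 when single animals were left out. Gata4 was 0.36 with library totals (adjusted p = 0.0116), 0.27 with DESeq2 (0.0322), 0.30 with voom (0.0235), 0.41 without heterozygotes 2 and 3 (0.00548), and 0.23 to 0.33 without single animals. Gata6 was 0.46 with library totals (0.0345), 0.36 with DESeq2 (0.0359), 0.43 with the Y-linked covariate (0.0217), and 0.29 to 0.45 without single animals. Irx4 was 0.40 with library totals (0.0264), 0.35 with voom (0.0312), and 0.22 to 0.40 without single animals. Estimates that changed sign were Nkx2-5 (0.064 with library totals, 0.054 with voom, 0.22 without heterozygotes 2 and 3, -0.10 to 0.12 without single animals), Tbx5 (0.0255 with library totals, -0.40 with the endothelial covariate, -0.18 to 0.016 without single animals) and Mef2d (0.039 with library totals, 0.0104 without heterozygotes 2 and 3); the cause was not tested. The replicate numbers were not taken to pair the animals: 3 of 5 same-numbered pairs had a correlation of deviations above 0.1 (range -0.06 to 0.185), and 2 of 5 heterozygotes and 2 of 5 knockouts correlated best with their own number. With the replicate block Gata6 was 0.38 (0.0462), Nkx2-5 was 0.0055 and 2182 genes were called. With the endothelial covariate 1033 genes in all and 11 list genes were called, where the main analysis called 2241 and 18; the other settings gave 2019 to 2625 genes, and 1699 to 2258 without single animals. Tbx20, Hand2, Mef2a and Mef2c kept a positive estimate and missed the threshold in all 21 settings; without single animals they ranged over 0.24 to 0.43, 0.04 to 0.44, 0.14 to 0.29 and 0.085 to 0.23.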

Other observations

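One gene of the pericyte and smooth muscle markers went against the others of its list. Cspg4, which encodes the NG2 proteoglycan, rose from 37.0 ± 6.39 to 132 ± 21.3 CPM (log2 1.84, SE 0.142, edgeR adjusted p = 1.23e-06), and all 5 knockouts lay above all 5 heterozygotes. The other 6 markers of that list had negative estimates, of which edgeR called 0 (0 at an unadjusted p below 0.05), DESeq2 0 and voom 1, and the summed level of the list overlapped between the groups (473 to 698 CPM in the heterozygotes and 539 to 695 in the knockouts).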
